A study of Mus musculus with 5 samples.

Results

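The polyamine synthesis genes examined here were *Amd1*, *Amd2*, *Odc1*, *Oaz1*, *Oaz2*, *Azin1*, *Srm*, *Sms*, *Sat1* and *Smox*, 10 of the 23361 gene symbols in the data, and all 10 passed the expression filter that left 12740 genes. *Amd1* and *Amd2* were selected on their FPKM difference between the genotypes in these same libraries, so their genotype values are given as a description with no test. The other 8 were listed for their place in the pathway. Whole hippocampus of 3-month-old mice was profiled by RNA-seq. Both groups carried the floxed *Hdac1* allele. Control mice had the genotype *Hdac1* f/f (n = 2), and *Hdac1* cKO mice had the genotype *Hdac1* f/f, Nestin-Cre (n = 3). Nestin-Cre acts in the neural lineage, so neurons and astrocytes lose the gene while microglia keep it. The Cre transgene was present only in the cKO group, and its effect and that of the deletion cannot be told apart here.

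Polyamines are small positively charged molecules that bind nucleic acids and, in the brain, modulate ion channels such as NMDA-type glutamate receptors. Ornithine decarboxylase (encoded by *Odc1*) makes putrescine, and aminopropyl groups taken from decarboxylated S-adenosylmethionine turn putrescine into spermidine and then spermine. Antizymes bind ornithine decarboxylase and send it for degradation, and the antizyme inhibitor frees it again.

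The question was whether the level of this pathway differed between *Hdac1* cKO and control mice once the near-identical *Amd1* and *Amd2* were counted together. The sum of *Amd1* and *Amd2* was 1.08-fold as high in cKO as in control libraries, and the groups overlapped. None of the other 8 genes passed the threshold, and each fold lay between 0.933 and 1.11. The 95% interval of every one of the 8 lay inside a 1.5-fold change in either direction. *Amd1* and *Amd2* as single rows differed in opposite directions.

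*Hdac1* was at 8.95 and 13.1 FPKM (fragments scaled to transcript length and library size) in control 1 and control 2, and at 1.95, 3.12 and 3.37 FPKM across cKO 1, cKO 2 and cKO 3. The groups did not overlap, and the log2 difference was −1.66 (SE 0.21, unadjusted p = 5.16e-05, limma adjusted p = 0.219), past a fold of 1.5 with an unadjusted p under 0.05, the threshold used throughout. The adjusted p was under 0.05 with the set described next as a block (−1.74, limma adjusted p = 0.00389) and with the replicate number as a block (−1.77, limma adjusted p = 0.0115). Libraries held 565363 to 636705 FPKM in total, and an estimated 5140000 to 6770000 fragments. In low-FPKM genes the ratios between libraries fell on repeated steps within a first set (control 1 and cKO 1) and within a second set (control 2, cKO 2 and cKO 3), which no label names. Pairs within a set shared 24.6% to 28.4% of such genes inside 0.05 log2 units, against 3.71% to 4.64% across sets. Marker lists of hippocampal neurons, neurons in general, astrocytes, oligodendrocytes and microglia were all detected, and no marker tested was at 0 in every library. Mean log2 differences of these lists were 0.0042, −0.10, 0.28, 0.08 and 0.04, with endothelium at −0.03, choroid plexus at 0.73 (−0.37 without control 2) and red cells at −0.98 (−0.19 without control 1). The two-sided exact permutation p over libraries was 0.1 to 1 for the 8 lists, 0.8 to 1 after adjustment over them, and 0.1 is the smallest that 2 against 3 libraries allow. In bulk tissue, fewer cells of a type and less RNA per cell cannot be told apart.

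*Amd1* and *Amd2* both encode S-adenosylmethionine decarboxylase, which makes the aminopropyl donor. In mm9, *Amd1* (ENSMUSG00000075232.3) lies at chr10:40007265-40021992 on the minus strand and has 8 exons. *Amd2* (ENSMUSG00000063953.2) lies at chr10:35428497-35431697 on the same strand as 1 exon, 4575567 bases away. The annotated transcripts are 3203 and 3201 nt long, and over 3207 aligned columns 99.4% were identical. They differ by 10 bases present in only 1 of the transcripts, all in the UTRs. The other differences are 10 substitutions. Counted from 1 at the 5′ end of the *Amd1* transcript, with the *Amd1* base first, these are T166A in the 5′ UTR, G1124C in the coding sequence, and C1476T, G1784T, C1785T, G2295A, A2432G, A2438G, G2530A and T2676C in the 3′ UTR. G1124C changes codon 266 from GAC to CAC and was the only difference in 1005 coding bases. Of the 3154 stretches of 50 nt in the *Amd1* transcript, 440 (14.0%) do not occur in *Amd2*. The 30 genomic bases that follow *Amd2* are all A, against 7 of 30 after *Amd1*. A stretch of that length from one gene thus fits the other at most positions, and how the authors' programs were set to share such reads is not given in the sources used here.

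**Figure D1:**
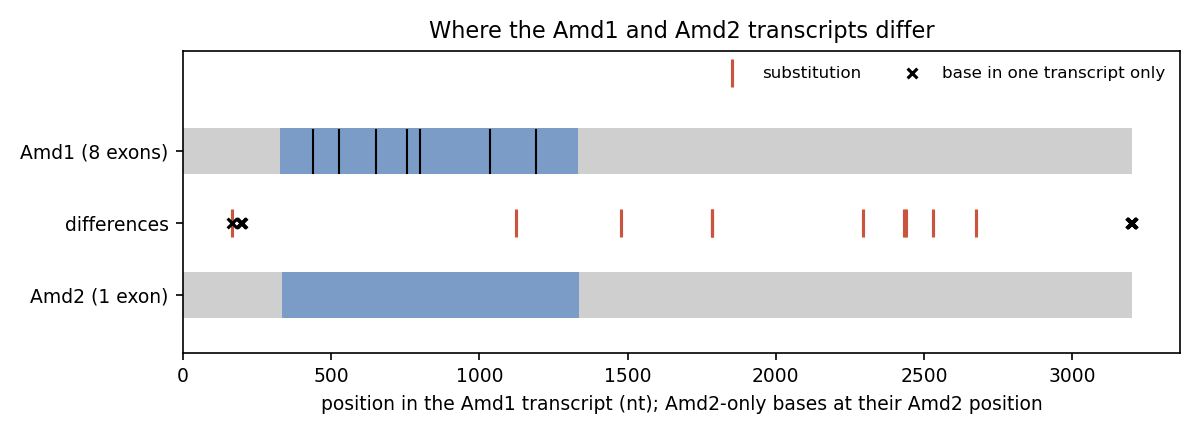
The x axis is the position in the transcript in nt, with the Amd1 and Amd2 transcripts as bars (coding sequence blue, UTRs grey, black lines at Amd1 exon ends). The 10 substitutions (red) and the bases present in only 1 transcript (crosses) leave one coding substitution at position 1124 and a long shared coding sequence.

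The stretches in front of the annotated starts are shown because they, unlike the transcripts, set the loci apart. Each is the 250 bases upstream of the start in RefSeq (GRCm38.p6), at chr10:40302189-40302438 for *Amd1* and chr10:35711892-35712141 for *Amd2*, both read from the minus strand, 5′ to 3′, with every CpG in capitals.
Amd1: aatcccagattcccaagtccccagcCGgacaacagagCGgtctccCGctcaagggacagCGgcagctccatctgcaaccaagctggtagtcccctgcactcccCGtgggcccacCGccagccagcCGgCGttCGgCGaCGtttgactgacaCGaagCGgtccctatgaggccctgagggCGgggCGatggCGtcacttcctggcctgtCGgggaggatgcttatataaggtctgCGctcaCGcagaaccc
Amd2: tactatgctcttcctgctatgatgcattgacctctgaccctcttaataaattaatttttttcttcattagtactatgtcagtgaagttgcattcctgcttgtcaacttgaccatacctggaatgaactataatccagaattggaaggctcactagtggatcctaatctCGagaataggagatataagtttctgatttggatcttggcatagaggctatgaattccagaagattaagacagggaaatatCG
The *Amd1* stretch holds 19 CpG and is 64.4% G or C, and the *Amd2* stretch holds 2 CpG and is 37.6% G or C. Among the 32851 RefSeq windows of this length the median was 6 CpG and 52.4% G or C. As many CpG as at *Amd1*, or more, were present in 19.7% of windows, and as few as at *Amd2*, or fewer, in 29.0%. RefSeq windows were matched by symbol for 8 of the 10 genes.

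*Amd1* stood at 39.3 and 16.9 FPKM in control 1 and control 2, and at 4.82, 0.0623 and 17.7 FPKM in cKO 1, cKO 2 and cKO 3. Control 1 was highest and cKO 2 was close to 0, while cKO 3 lay just above control 2, so the groups overlapped. In cKO 2 the value amounts to an estimated 1.03 fragments, against 105 to 843 in the other 4 libraries. *Amd2* stood at 38.6 and 73.3 FPKM in control mice and at 77.3, 96.3 and 75.2 FPKM in cKO mice. Here control 1 was lowest and cKO 2 highest, and the groups did not overlap, with control 2 only slightly under cKO 3. *Amd1* made up 50.5% and 18.7% of the sum in control mice, against 5.86%, 0.0646% and 19.1% in cKO mice. The library with the highest *Amd1* thus had the lowest *Amd2*, and the one with the lowest *Amd1* had the highest *Amd2*.

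Means were 28.1 ± 15.9 FPKM (SD, n = 2) in control and 7.54 ± 9.15 FPKM (SD, n = 3) in cKO for *Amd1*, and 55.9 ± 24.5 and 83.0 ± 11.6 FPKM for *Amd2*. On the log2(FPKM + 1) scale the difference, cKO minus control, was −2.46 (SE 0.99) for *Amd1* and 0.62 (SE 0.24) for *Amd2*. Within the first set these differences were −2.79 and 0.98, and within the second set −2.001 and 0.21. Without cKO 2 the *Amd1* difference was −1.36, and without cKO 3 it was −3.43. Without control 1 the *Amd2* difference was 0.17, and without control 2 it was 1.07. The size of the *Amd2* difference thus rested on which control was kept, and its direction did not.

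The sum of *Amd1* and *Amd2* was 78.0 and 90.1 FPKM in the 2 controls, against 82.2, 96.4 and 92.9 FPKM in the 3 cKO libraries. Control 1 was lowest, but cKO 1 lay below control 2, so the groups overlapped. Means were 84.0 ± 8.62 FPKM in control and 90.5 ± 7.42 FPKM in cKO (SD, n = 2 and 3). Its log2 difference was 0.11 (SE 0.11), a fold of 1.08, given as a description. Without control 1 it was 0.0025, and without control 2 it was 0.21. Within the sets the difference was 0.08 and 0.07. The difference between the genotype means was smaller than the SD of either group. The sets themselves did not overlap in the sum, with means of 80.1 FPKM (first) and 93.2 FPKM (second) (ratio 1.16).

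**Figure D2:**
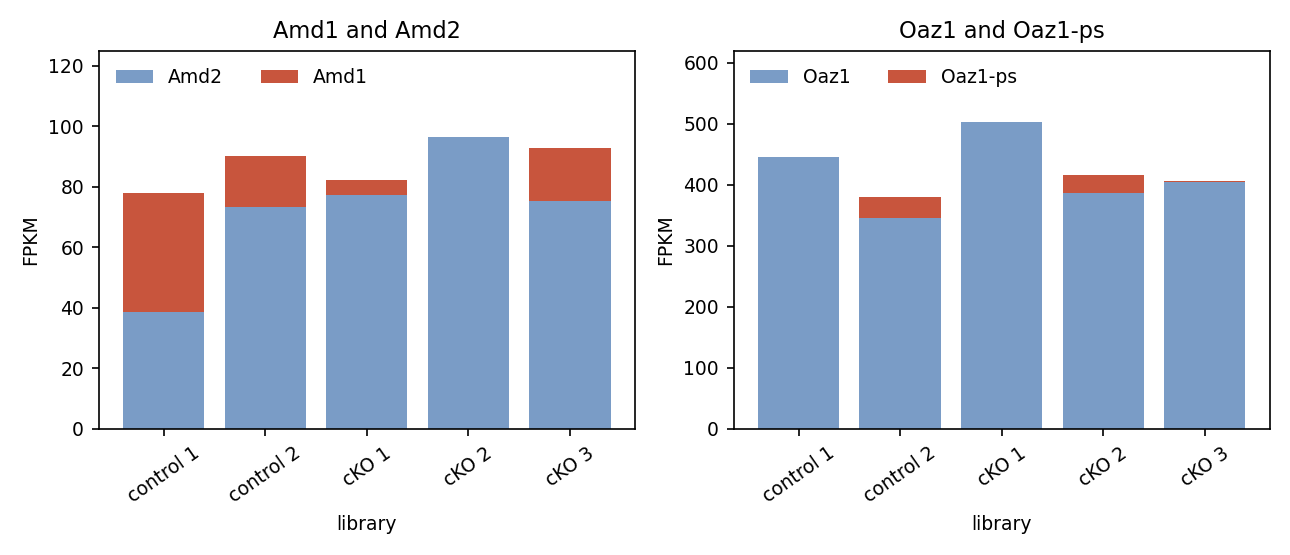
Stacked bars give FPKM per library (x axis) of Amd2 and Amd1 on the left and of Oaz1 and Oaz1-ps on the right. The Amd1 share falls from 50.5% in control 1 to 0.0646% in cKO 2 while the height of the whole bar stays between 78.0 and 96.4 FPKM. Oaz1-ps is listed at 0 in control 1 and cKO 1.

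Among the enzymes and regulators of the first step, *Odc1* (chr12:17551679-17558308, plus strand, mm9) encodes ornithine decarboxylase, which is rate-limiting for polyamine synthesis. It stood at 38.1 and 36.5 FPKM in control 1 and control 2, and at 40.4, 41.2 and 40.0 FPKM across cKO 1, cKO 2 and cKO 3. In FPKM all 3 cKO libraries lay above both controls, by a small margin that dividing by the library total removed. Its log2 difference was 0.12 (SE 0.09), a fold of 1.09 with a 95% interval of 0.938 to 1.26, and it did not pass the test (unadjusted p = 0.232, limma adjusted p = 0.955). The unadjusted p was 0.0159 without the FPKM filter and 0.0232 without moderation of variances (limma adjusted p = 0.916 and 0.931).

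*Oaz1* (chr10:80289401-80292035, plus strand, mm9) encodes antizyme, whose synthesis requires a polyamine-stimulated ribosomal frameshift. It was the highest of the 10 genes in every library, at 446 and 346 FPKM in control mice and 503, 387 and 404 FPKM in cKO mice. The groups overlapped, since control 1 lay above cKO 2 and cKO 3. Its log2 difference was 0.13 (SE 0.15, fold 1.09, 95% interval 0.854 to 1.39, limma adjusted p = 0.974), and without control 2 it was −0.057. Both libraries of the first set lay above all 3 of the second. Within the first and second set the difference was 0.17 and 0.19, and with the set as a term it was 0.18 (SE 0.06, unadjusted p = 0.0208, limma adjusted p = 0.497).

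*Oaz1* has a near-identical copy, *Oaz1-ps*, annotated on chromosome 17 and matching 1042 of its 1071 nt at 99.4% identity. The *Oaz1-ps* row was listed at 0 in control 1 and cKO 1, the libraries of the first set, and at 33.9, 30.4 and 1.67 FPKM in control 2, cKO 2 and cKO 3. With both rows added the values were 446 and 380 FPKM in the 2 controls, against 503, 417 and 406 FPKM in the 3 cKO libraries, and the log2 difference was 0.10, in an alternative that was added once the values were known. The sum still overlapped between the groups, so adding the copy left the genotype comparison of *Oaz1* where it was.

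*Oaz2* (chr9:65515808-65538107, plus strand, mm9), the second antizyme, stood at 98.9 and 94.3 FPKM in control 1 and control 2, and at 109.5, 103 and 101 FPKM across cKO 1, cKO 2 and cKO 3. *Azin1* (chr15:38417185-38449021, minus strand, mm9), the antizyme inhibitor, stood at 44.7 and 45.0 FPKM in control mice and at 47.4, 50.7 and 45.4 FPKM in cKO mice. Divided by the library total, *Azin1* overlapped between the groups. In FPKM every cKO library lay above both controls in both genes, although cKO 3 exceeded the higher control by very little. Their log2 differences were 0.11 (SE 0.09, fold 1.08, 95% interval 0.930 to 1.25) and 0.09 (SE 0.10, fold 1.07, 95% interval 0.914 to 1.24). Neither passed the test, with limma adjusted p-values of 0.955 and 0.966. A processed copy of *Oaz2* matches 1815 of its 1844 nt at 98.0% identity, and the search found no copy of *Azin1*.

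The ratios among these regulators hold within a library and do not depend on its total. The antizyme to decarboxylase ratio (*Oaz1* to *Odc1*) was 11.7 and 9.48 in the 2 controls, against 12.5, 9.38 and 10.1 in the 3 cKO libraries. The ratio of *Azin1* to *Odc1* was 1.17 and 1.23 in control 1 and control 2, and 1.17, 1.23 and 1.14 across cKO 1, cKO 2 and cKO 3. Both overlapped between the groups. For *Oaz2* to *Odc1* the ratio was 2.60 and 2.59 against 2.71, 2.49 and 2.52, again with overlap.

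The aminopropyl transferases follow in the pathway. *Srm* (chr4:147965612-147969102, plus strand, mm9) encodes spermidine synthase and stood at 21.1 and 18.5 FPKM in control mice and at 18.0, 18.1 and 20.2 FPKM in cKO mice. *Sms* (chrX:153881787-153930219, minus strand, mm9) encodes spermine synthase and stood at 49.6 and 54.8 FPKM in the 2 controls, against 49.0, 59.3 and 57.6 FPKM in the 3 cKO libraries. The groups overlapped in both. The log2 difference was −0.07 (SE 0.11, fold 0.953, 95% interval 0.797 to 1.14, limma adjusted p = 0.976) for *Srm* and 0.08 (SE 0.11, fold 1.06, 95% interval 0.879 to 1.27, limma adjusted p = 0.974) for *Sms*. *Srm* was the lowest of the 8 in every library and rested on an estimated 124 to 189 fragments, which alone gives a counting error of 7.28% to 8.97%. Its direction differed between the sets, −0.21 in the first and 0.05 in the second, and without control 1 it was 0.02. *Sms* differed by −0.02 within the first set and by 0.09 within the second.

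Sat1 and Smox act in the opposite direction. *Sat1* (chrX:151647675-151650992, minus strand, mm9) encodes spermidine/spermine acetyltransferase, which marks polyamines for export or oxidation. It stood at 49.8 and 47.8 FPKM in control 1 and control 2, and at 60.0, 52.7 and 51.1 FPKM across cKO 1, cKO 2 and cKO 3, and the groups did not overlap. In the fit of all libraries with genotype alone and no rescaling, its log2 difference was the largest of the 8. It was 0.16 (SE 0.10, fold 1.11, 95% interval 0.942 to 1.32) and did not pass the test (unadjusted p = 0.176, limma adjusted p = 0.955). Within sets it was 0.26 and 0.12. With the set as a term it was 0.18 (SE 0.07, unadjusted p = 0.0357, limma adjusted p = 0.498), and with the replicate number as a block 0.20 (unadjusted p = 0.0354, limma adjusted p = 0.425).

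*Smox* (chr2:131317232-131351658, plus strand, mm9) encodes spermine oxidase, which turns spermine back into spermidine. It stood at 40.1 and 31.5 FPKM in control mice and at 38.6, 30.03 and 31.3 FPKM in cKO mice. Control 1 and cKO 1, the first set, lay above the other 3 libraries, and the genotypes overlapped. Its log2 difference was −0.10 (SE 0.15, fold 0.933, 95% interval 0.739 to 1.18, limma adjusted p = 0.974), and without control 1 it was 0.07. Within sets the difference was −0.05 and −0.04.

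The ratio of *Sat1* to *Smox* was 1.24 and 1.52 in the 2 controls, against 1.56, 1.75 and 1.64 in the 3 cKO libraries. It was the only one of 6 ratios among the members (with *Sms* to *Srm* and *Oaz1* to *Oaz2* also computed) in which the groups did not overlap. The margin between control 2 and cKO 1 was small, and the log2 difference of 0.26 had a two-sided exact permutation p of 0.1, or 0.6 after adjustment over the 6 ratios. For *Sms* to *Srm* the ratio was 2.36 and 2.96 in control 1 and control 2, and 2.71, 3.28 and 2.85 across cKO 1, cKO 2 and cKO 3.

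**Figure D3:**
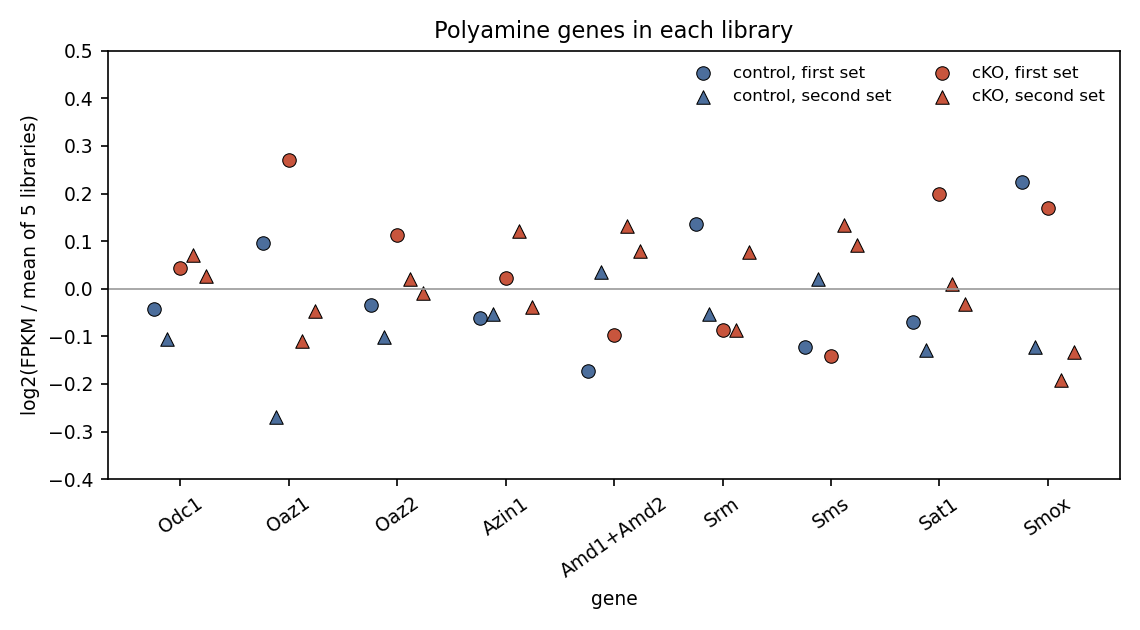
The y axis is the log2 ratio of FPKM to the mean of the 5 libraries for the sum of Amd1 and Amd2 and the other 8 genes (x axis), with control in blue and cKO in red, circles for the first set and triangles for the second. The highest library exceeds the lowest 1.13-fold in Odc1 and 1.46-fold in Oaz1, and circles and triangles separate in Oaz1, Sms, Smox and the sum.

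Of the 8 genes other than *Amd1* and *Amd2*, 0 reached a fold of 1.5 with an unadjusted limma p under 0.05, against 0.659% of all tested genes (84 genes, 51 higher and 33 lower in cKO). None of the 8 had an adjusted p under 0.05, against 0.00785% (1 gene), and 0 had an unadjusted p under 0.05, against 555 of the 12740 genes. The cKO mean was higher in 6 of the 8 and lower in 2. Their median log2 difference was 0.10, against 0.01 over all tested genes, and after rescaling every library to a common total (TPM) the medians were 0.03 and −0.04. In 4 of the 8 (*Odc1*, *Oaz2*, *Azin1* and *Sat1*) all cKO libraries lay above both controls, and in 0 all lay below. Over all tested genes these shares were 11% and 9.41%. Both counts are on FPKM as deposited, whose total was largest in cKO 1 (636705, against 582920 in control 1 and 565363 in control 2). Divided by the library total, cKO 1 lay below both controls in *Odc1* and *Azin1*, so the groups then overlapped in both genes. The shares over all tested genes were not recounted that way.

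The summed level of astrocyte markers was without overlap in FPKM, at 1640 and 1656 FPKM in the controls and 1911 to 2039 FPKM in the cKO libraries. In 6 of the 7 astrocyte markers all cKO libraries lay above both controls, against 11% of all tested genes. With TPM the mean log2 difference of this list was 0.21 (exact permutation p = 0.2), against 0.28 (exact permutation p = 0.1) without rescaling. The part of astrocyte markers in the values of *Odc1*, *Oaz2*, *Azin1* and *Sat1* was not tested. Choroid plexus markers were at 164 and 6.13 FPKM in control 1 and control 2, and at 73.45, 598 and 24.7 FPKM in cKO 1, cKO 2 and cKO 3. They were highest in cKO 2, the library with the lowest *Amd1*, and next highest in control 1, the library with the highest *Amd1*. Their part in *Amd1* was not tested.

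**Figure D4:**
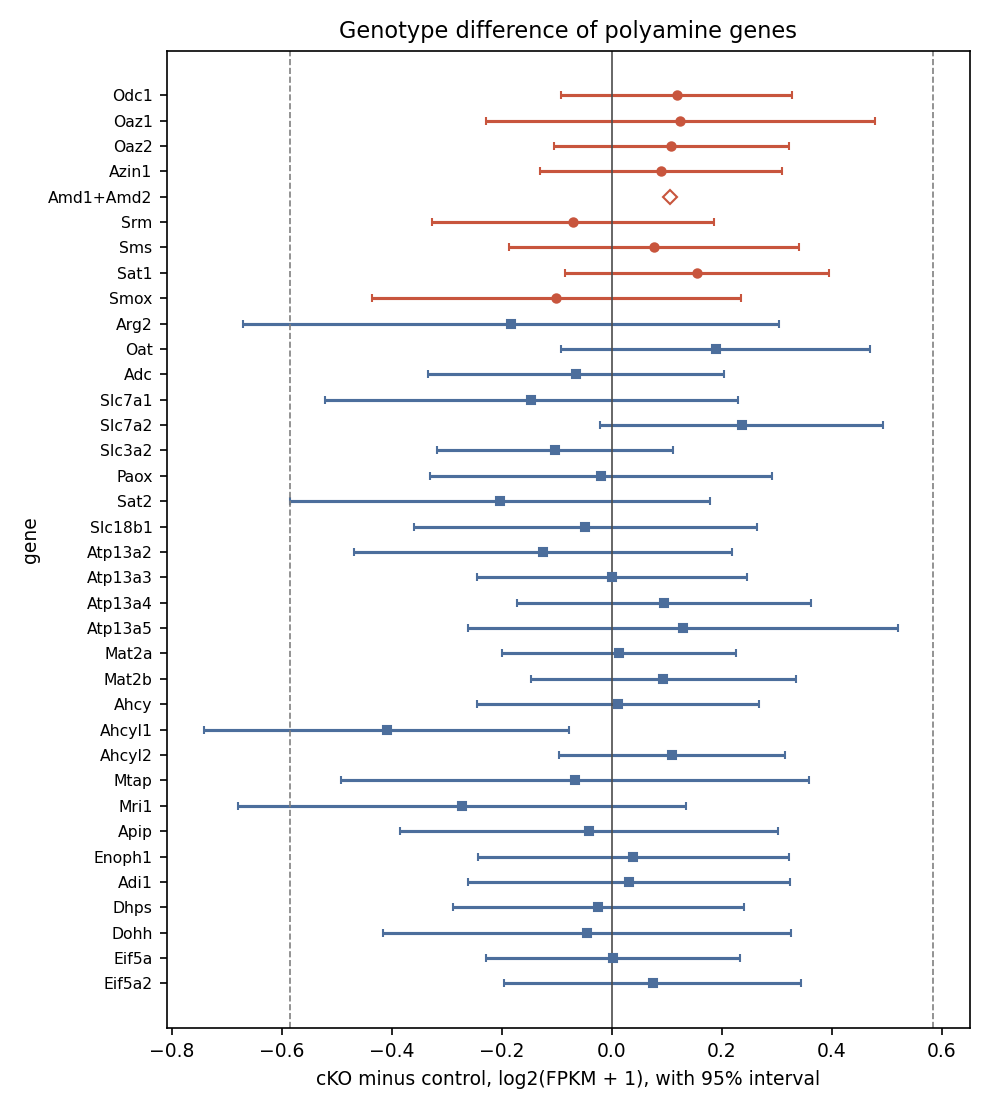
The x axis is the difference, cKO minus control, on the log2(FPKM + 1) scale, with its 95% limma interval for the 8 members other than Amd1 and Amd2 (red circles) and the 27 tested genes of the wider list (blue squares), n = 2 and 3. The sum of Amd1 and Amd2 is an open diamond with no interval, and dashed lines mark a fold of 1.5. The intervals of the 8 members lie inside these lines and include 0, and among the wider genes only that of Ahcyl1 does not include 0.

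The sets separated several members more than the genotypes did. In *Oaz1*, *Sms* and *Smox*, 3 of the 8 genes, the libraries of the sets did not overlap, against 40.1% of all tested genes, so this share was close to the background. With genotype in the same limma fit, the second set differed from the first by −0.36 (SE 0.06, adjusted p = 0.0368) for *Oaz1*, by −0.33 (SE 0.07, adjusted p = 0.0514) for *Smox* and by 0.20 (SE 0.07, adjusted p = 0.134) for *Sms*. *Oaz1* was thus the only one of the 8 with an adjusted p under 0.05, against 3.09% of all tested genes. The sets were drawn from the values of other, low-FPKM genes and not from a label.

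A wider list of 39 genes took in the supply of arginine and ornithine, polyamine transport and catabolism, S-adenosylmethionine, methylthioadenosine salvage and hypusine, the spermidine-derived residue on eIF5A. Of these, 27 were tested, and 0 were past the threshold in either direction, against 0.659% of all tested genes. The cKO mean was higher in 13 and lower in 14, and the median log2 difference was −0.02, against 0.01 over all tested genes. Groups did not overlap in 3 with cKO higher and in 2 with cKO lower, shares of the 27 close to the 11% and 9.41% over all tested genes.

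Of the 27 genes, 1 had an unadjusted p under 0.05, against 555 of the 12740 tested genes, so the list did not stand above the background. *Ahcyl1*, which resembles the hydrolase of S-adenosylhomocysteine and binds the inositol trisphosphate receptor, was at 94.0 and 84.8 FPKM in control mice and at 79.7, 56.6 and 66.6 FPKM in cKO mice. All 3 cKO libraries lay below both controls. The log2 difference was −0.41 (SE 0.14, unadjusted p = 0.0218, limma adjusted p = 0.955).

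In each other role the gene with the smallest p also failed the test. *Slc7a2*, a cationic amino acid transporter that carries arginine, was at 8.23 and 7.53 FPKM in the 2 controls, against 9.86, 9.10 and 9.42 FPKM in the 3 cKO libraries, with no overlap (log2 difference 0.24, limma adjusted p = 0.955). The log2 difference was −0.20 for *Sat2*, a relative of *Sat1*, −0.27 for *Mri1* of methylthioadenosine salvage, −0.12 for *Atp13a2*, a lysosomal polyamine exporter, and 0.07 for *Eif5a2*, an isoform of eIF5A. Groups overlapped in all 4, and their limma adjusted p-values were 0.955 to 0.976.

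The *Amd* genes have further processed copies in the genome. With at least 95% identity over 200 nt, the search found *Amd-ps1* on chromosome X (96.0% identity over 3202 nt) and *Amd-ps4* on chromosome 4 (98.9% over 1895 nt), among others, and neither symbol had a row in the data. *Odc1* had 9 such matches, the longest over 2465 of 2547 nt, *Sms* 2, *Sat1* 2, and *Srm* and *Smox* 0. Of the rows at *Odc1* matches, *Gm15645* was at 2.56 and 3.16 FPKM in control 1 and control 2, and at 3.27, 4.59 and 3.11 FPKM across cKO 1, cKO 2 and cKO 3. *Banp*, which overlaps another, was at 3.72 and 4.31 FPKM in control mice and at 3.60, 4.27 and 5.44 FPKM in cKO mice. Both lay far below *Odc1*, and in both the groups overlapped.

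Counting error was estimated from the FPKM value of 1 fragment. For *Odc1* it was 3.79% to 4.31% per library, against a spread between libraries of 3.02% in control and 1.52% in cKO. For *Oaz1* it was 1.66% to 2.17%, against a spread of 17.8% and 14.6%. The spread of *Oaz1* thus exceeded counting error and that of *Odc1* did not. These errors cover counting only. The limma p-values rest on the spread of a gene between these 5 libraries, drawn toward a trend over all tested genes.

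Among all tested genes, the 5 whose pattern over the 5 libraries lay closest to that of *Amd1* were *Lars2*, *Ifi27l2a*, *Rn45s*, *Ass1* and *Fxyd3*, by the root mean square distance of the deviations of log2(FPKM + 1) from the gene's mean. The distance was 0.935 for *Lars2*, against a spread of 1.82 for *Amd1* itself, so none followed it closely. *Lars2* was at 1575 and 2639 FPKM in the 2 controls, against 338, 236 and 1130 FPKM in the 3 cKO libraries. Closest to *Amd2* were *Egr2*, *Gm13157*, *Efcab1*, *A730008H23Rik* and *Atxn10*, at distances of 0.142 to 0.169, against a spread of 0.436 for *Amd2*. Of these, *Egr2* (0.401 to 1.56 FPKM), *Gm13157* (0.420 to 1.77 FPKM) and *A730008H23Rik* (1.06 to 3.61 FPKM) were near the filter of 1 FPKM. *Atxn10* was at 58.8 and 109 FPKM in control 1 and control 2, and at 90.1, 111 and 104 FPKM across cKO 1, cKO 2 and cKO 3, with overlapping groups.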

How the data were processed

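RNA-seq profiled the hippocampus of 2 control and 3 *Hdac1* cKO mice aged 3 months, with groups and replicate numbers taken from the genotype and title labels. The deposited values are FPKM per gene symbol, which the authors made from total RNA libraries (Illumina TruSeq). The submitters' processing notes name TopHat, Bowtie, Cufflinks 2.0.0 and mm9. How reads that fit several genes were shared is not given in the sources used here, nor is the read total of each library. FPKM are not counts, so no count test was used.

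Genes averaging at least 1 FPKM were tested with limma 3.58.1 in R 4.3.3 on log2(FPKM + 1), with a mean-variance trend, genotype as the term, two-sided p-values and Benjamini-Hochberg adjustment over all tested genes. A fold change on this scale understates the change of low genes. The threshold was a fold of 1.5 with unadjusted p under 0.05. *Amd1* and *Amd2* FPKM were also added before the fit. Marker lists and ratios were compared with exact permutation tests. Fragments were estimated from the repeated steps of low FPKM values in genes with 1 transcript of at least 1000 nt, from 30 to 77 genes per library, and are approximate. Transcripts and coordinates are GENCODE vM1 (mm9, 1-based), and copies were searched with BLAST 2.17.0 (at least 95% identity over 200 nt).

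The members and gene lists were chosen with earlier results of these data known. Named genes were *Hdac1*, the 10 members, their near-identical copies with a row, any gene of the wider list past the threshold and otherwise the gene with the smallest p in each role, and the 5 genes closest in pattern to *Amd1* and *Amd2*. Alternatives changed the pseudocount, filter, scaling, variance model, blocks and libraries.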

Additional observations from a re-analysis of the deposited data

How the results depend on the processing

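Of 129 alternatives for the 8 members with a test, 126 kept their direction. Leaving out control 2 turned *Oaz1* to −0.057, and leaving out control 1 turned *Srm* to 0.020 and *Smox* to 0.068. Over single libraries left out, the differences spanned −0.057 to 0.31 for *Oaz1*, −0.16 to 0.020 for *Srm* and −0.27 to 0.068 for *Smox*. *Amd2* moved to 0.17 without control 1 and 1.07 without control 2, and *Amd1* to −1.36 without cKO 2. *Sms* ran from 0.0076 (without control 1) to 0.16 (without cKO 1), *Sat1* was 0.087 without cKO 1 and *Azin1* was 0.048 without cKO 2. With TPM, under which the all-gene median went to −0.04 from 0.01, the differences were 0.053 for *Odc1*, 0.059 for *Oaz1*, 0.043 for *Oaz2*, 0.025 for *Azin1*, −0.13 for *Srm*, 0.012 for *Sms*, 0.090 for *Sat1*, −0.17 for *Smox* and 0.040 for the sum. The cause was not tested.

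The sum of *Amd1* and *Amd2* had a log2 difference of 0.0025 to 0.21 when single libraries were left out. Counted over all 10 rows, 2 members were past the threshold, *Amd1* and *Amd2*, which were selected on this contrast, so nothing is read from that count. It was 1 with a pseudocount of 0.1 and with either rescaling to a common total (TPM, with or without short RNA genes). The count was 0 without the FPKM filter, without moderation of variances, with the set as a block and with the sum in place of both genes, and 0 to 2 with single libraries left out (0 without control 1 or cKO 2). The wider list stayed at 0 throughout. None of the 8 others reached a fold of 1.5, or an adjusted p under 0.05, in 16 alternatives each. Unadjusted p-values under 0.05 arose for *Odc1* without the filter or moderation, *Oaz1* with the set block and *Sat1* with either block.

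The count of all genes past the threshold, 84, was 142 with a pseudocount of 0.1, 43 with a minimum mean of 5 FPKM, 31 without moderation and 92 to 234 with single libraries left out. The Amd1 share of the sum differed by −26.2 percentage points, and by −42.1 without control 2 and −10.4 without control 1.

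No label says that same-numbered samples share more than a number, although each pair falls within 1 set of libraries. Their deviations from the group means correlated at 0.402 and 0.269 over 12740 genes, and with 2 pairs this does not show a pairing. *Hdac1* had an adjusted p under 0.05 with the replicate block (−1.77) and the set as a block (−1.74). The replicate block moved the count of genes past the threshold to 133 and the set block to 95, and neither changed a call among the 8 members.

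Differences of 5 marker lists changed sign under some alternative. Hippocampal neurons went to −0.011 with size factors, −0.023 with quantile normalization, −0.059 and −0.039 with either TPM, −0.023 when replicates (the replicate block) and −0.0064 when sets were the block, and ran from −0.048 to 0.057 with single libraries left out. Oligodendrocytes went to −0.025 with the replicate block and ran from −0.025 to 0.18 with single libraries left out. Microglia went to −0.027 and −0.0072 with either TPM, −0.037 when replicates and −0.0063 when sets were the block. Single libraries left out gave −0.13 to 0.20 for microglia, −0.25 to 0.098 for endothelium and −0.37 to 1.82 for choroid plexus, which was 2.32 with a minimum mean of 5 FPKM. Red cells, at −0.98 with all libraries, were at −0.19 without control 1 and −1.77 without control 2, and neurons at −0.16 and −0.045. With 2 controls and 3 cKO libraries, the lower 95% bounds of the fold lay between 0.739 and 0.942 and the upper bounds between 1.14 and 1.39 over the 8 members, and differences inside these bounds could not be told from the spread.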
